A study of Mus musculus with 16 samples.

Results

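The miR-30 family was followed over both arms of its hairpins in plasma extracellular vesicles (pEVs) of PS19 and WT mice. The members were the mature miR-30 entries chosen by name from the deposited table, 8 of its 15159 ncRNAs and of its 817 mature miRNAs. The 5p arms, from the 5′ side of the hairpin, made up 5 of them, miR-30a-5p, miR-30b-5p, miR-30c-5p, miR-30d-5p and miR-30e-5p, and the 3p arms, from its 3′ side, the other 3, miR-30a-3p, miR-30d-3p and miR-30e-3p. The table held 9 other miR-30 entries (3 further 3p arms and 6 hairpin precursors). PS19 mice carry a human MAPT transgene with the P301S mutation under the mouse prion promoter (Prnp) on a mixed C57BL/6 and C3H background, and were heterozygous (PS19+/-). WT mice were littermates without the transgene. Both groups had 8 mice of about 9.6 months with equal numbers of each sex, and 1 small RNA library was made from 200 µL plasma of each mouse. The pEVs were precipitated from whole plasma, so vesicles of any tissue can be in them, and a smaller number of vesicles from one source cannot be told apart from less RNA per vesicle. The study calls carry-over of albumin or lipoproteins unavoidable with this method, though without effect on its analysis. RNA from outside the vesicles was not measured separately.

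A miRNA hairpin is cut by Drosha and Dicer into a short duplex, of which one strand, the guide, is kept by an Argonaute protein while the other is mostly degraded. Bases 2 to 8 of the guide, the seed, pair with target mRNAs, so miRNAs that share a seed share many targets. The 5p arms of the miR-30 family share 1 seed and are widely expressed, with targets in autophagy (Becn1), epithelial identity (Snai1, Vim) and extracellular matrix signalling (Ccn2), whereas the 3p arms have other seeds.

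The mature sequences show how close the members are to each other, which bears on how their reads can be assigned. RefSeq (GRCm38.p6) gave no sequence for miR-30b-5p, miR-30d-5p and miR-30d-3p. It gave one for the other 5 of the 8 members, printed here from 5′ to 3′ with the seed in capitals.
mmu-miR-30a-5p: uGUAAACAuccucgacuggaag
mmu-miR-30c-5p: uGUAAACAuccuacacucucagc
mmu-miR-30e-5p: uGUAAACAuccuugacuggaag
mmu-miR-30a-3p: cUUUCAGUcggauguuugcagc
mmu-miR-30e-3p: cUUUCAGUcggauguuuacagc
The seed GUAAACA was common to miR-30a-5p, miR-30c-5p and miR-30e-5p, and of the mouse miRNAs in the RefSeq table it was found in 1 more, miR-384-5p, which had 5 reads in PS19 and 3 in WT. The seed UUUCAGU was that of miR-30a-3p and miR-30e-3p alone in that table, which lacked miR-30d-3p. Counted from 1 at the 5′ end, miR-30a-5p and miR-30e-5p differed by the single substitution C13U, and miR-30a-3p and miR-30e-3p by G18A. A sequencing or mapping error at that base would move a read from one to the other, so the split of reads between miR-30a and miR-30e is less certain than their sum. How close miR-30d-5p is to miR-30a-5p could not be checked here, though their reads are compared below. miR-30a-5p and miR-30c-5p differed at 5 of 22 positions.

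The hairpins of miR-30a and miR-30e show where both arms lie, in capitals, on either side of the loop.
Mir30a: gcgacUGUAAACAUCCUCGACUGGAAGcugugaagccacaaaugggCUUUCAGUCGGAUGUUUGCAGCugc
Mir30e: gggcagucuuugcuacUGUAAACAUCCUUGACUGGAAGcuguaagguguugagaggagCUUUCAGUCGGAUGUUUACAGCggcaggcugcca
In GRCm38, Mir30a lies at chr1:23272269-23272339 on the plus strand, outside other annotated genes. Mir30c-2 follows 19361 bases away at chr1:23291701-23291784, in an exon of the lincRNA Gm27028. Mir30e (chr4:120772606-120772697) and Mir30c-1 (chr4:120769534-120769622) are 2983 bases apart on the minus strand, both in introns of Nfyc, which encodes a subunit of the CCAAT-binding factor NF-Y. Mir30d (chr15:68341208-68341289) and Mir30b (chr15:68337415-68337510) are 3697 bases apart on the minus strand, in exons of the annotated genes Gm20732 and Gm37296 for Mir30d and of Gm26621 for Mir30b. miR-30c-5p is encoded by both Mir30c-1 and Mir30c-2, so its reads cannot be assigned to one locus.

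The libraries held 36220722 to 117583663 reads assigned to ncRNAs, of which 0.0631% to 7.40% were mature miRNAs. PS19 replicates 1, 3 and 4 stood apart with 69476, 159397 and 51467 mature miRNA reads, while the other 13 libraries had 335410 to 2681285. The highest number came from WT replicate 2, which had the lowest total of reads. Levels are given as normalized counts, the reads of a library divided by its size factor, so that 1 read was worth 0.389 to 3.83 normalized counts. These are counts per mature miRNA and were not divided by length. Markers of tissues that shed miRNAs into plasma were at or above 1 read in both genotypes, apart from the oligodendrocyte miR-219a-5p of the neuron list, which had 0 reads in WT. The summed level of 7 red blood cell miRNAs was 3532 to 88351 normalized counts in PS19 and 34085 to 186707 in WT, and that of 3 liver miRNAs 8502 to 211904 and 26564 to 386443. The 7 neuron miRNAs summed to 1030 to 10331 and 2248 to 10627, the 4 platelet and myeloid miRNAs to 97.0 to 398 and 144 to 399, and the 2 endothelial miRNAs to 516 to 2262 and 1444 to 3373. When the genotypes were compared, 3 red blood cell miRNAs and 1 liver miRNA fell in PS19 (limma raw p under 0.05, against 2.13% of all ncRNAs and 45 of the 817 mature miRNAs that fell) and 0 of the other markers changed. The part of these sources in the miR-30 values was not tested.

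All 8 members were detected, over more than 3 orders of magnitude. miR-30d-5p had the most reads, 96500 over the 16 libraries, and ranked 20th among the mature miRNAs by mean normalized count. miR-30a-5p followed with 57444 reads (rank 28), then miR-30a-3p with 14548 (rank 49) and miR-30c-5p with 7697 (rank 61). miR-30e-5p and miR-30e-3p had 3721 and 2893 reads (ranks 91 and 96). Lower still, miR-30b-5p had 815 reads (rank 143) and miR-30d-3p only 56 (rank 301). The order of the means held within most libraries: miR-30d-5p exceeded miR-30a-5p in 14 of 16 libraries, and each further member exceeded the next in at least 15 of 16, with the exception of miR-30e-5p and miR-30e-3p. Those neighbours differed by 0.16 ± 0.652 (SD, n = 16) on the log2 scale, within their spread, with miR-30e-5p higher in 9 of 16 libraries. Together the members took 1.15% to 2.28% of the mature miRNA reads of a library. Within the family, 5p arms took 85.9% to 92.7% of the reads and 3p arms 7.32% to 14.1%. miR-30d-5p and miR-30a-5p alone made up 49.5% ± 6.75 and 32.7% ± 4.47 of the family (SD, n = 16).

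**Figure D1:**
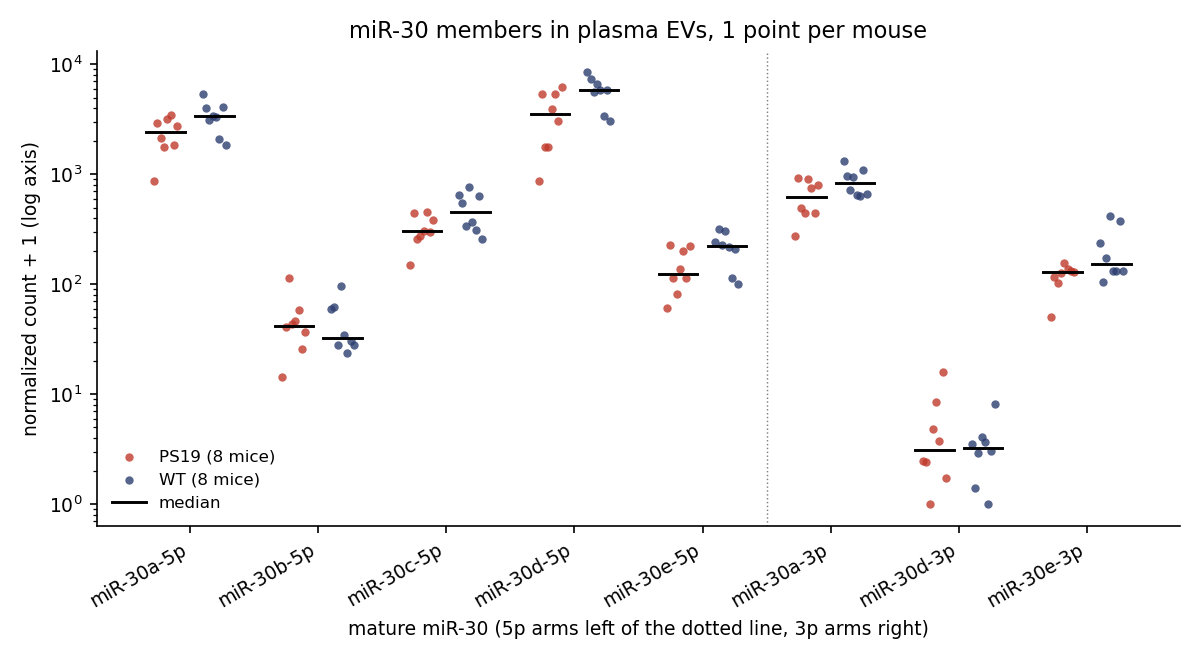
Normalized count + 1 (log axis) of the 8 mature miR-30 members, 5p arms left and 3p arms right of the dotted line. Each point is 1 mouse (8 PS19, 8 WT) and the line is the median of the group. Points of PS19 and WT overlap for all 8 members, as the ranges of the genotypes did for each of the 15159 ncRNAs. miR-30d-3p, with 0 to 18 reads per library, is the lowest member.

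The first comparison asked whether both arms of a hairpin had the same normalized count. It was made within each library, as log2((5p + 1)/(3p + 1)) of the normalized counts. The scaling of the library thus cancels apart from the added 1. How readily each sequence enters a library was not measured, so the ratio is one of counts. The mean of this ratio over 16 libraries was tested against 0 with a two-sided exact sign-flip permutation test and adjusted with the Benjamini-Hochberg method over the 82 miRNAs with both arms at a mean of at least 1 normalized count. The 5p arm was higher in 39 of these 82 pairs (47.6%) and the 3p arm in 34 (41.5%).

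The 3 hairpins with both arms among the members differed from each other in this ratio. For miR-30d the 5p arm stood almost alone. It had 96500 reads against 56 of miR-30d-3p, or 1723 reads per 3p read (95% Clopper-Pearson interval 1327 to 2281, counting error only). The log2 ratio was 10.29 ± 1.42 (SD, n = 16), the 3rd highest of the 82 pairs, and positive in 16 of 16 libraries, as in 37.8% of the pairs (exact sign-flip p = 3.05e-05, the smallest that 16 libraries can give, adjusted p = 4.47e-05). This value depends on the added constant, since 12 libraries had at most 3 reads of miR-30d-3p and PS19 replicate 3 and WT replicate 6 had 0. Taking 3 reads as the floor, the 5p arm was at least 429-fold higher in PS19 replicate 3 and at least 1971-fold higher in WT replicate 6. For miR-30a the preference was smaller and steadier. The log2 ratio was 1.93 ± 0.227 (SD, n = 16) and ran from 1.48 to 2.37, with the 5p arm higher in 16 of 16 libraries (exact sign-flip p = 3.05e-05, adjusted p = 4.47e-05). In reads, this was 3.95 of miR-30a-5p for each of miR-30a-3p (interval 3.88 to 4.02). For miR-30e the arms did not differ beyond the spread between libraries. The log2 ratio was 0.16 ± 0.652 (SD, n = 16) and ran from -0.83 to 1.59, with the 5p arm higher in 9 of 16 libraries (exact sign-flip p = 0.350, adjusted p = 0.368). Without WT replicate 2 it was 0.063. Neither arm was called in 9 of the 82 pairs, and the size of the mean log2 ratio of miR-30e was the 2nd smallest of the 82, against a median size of 3.85.

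**Figure D2:**
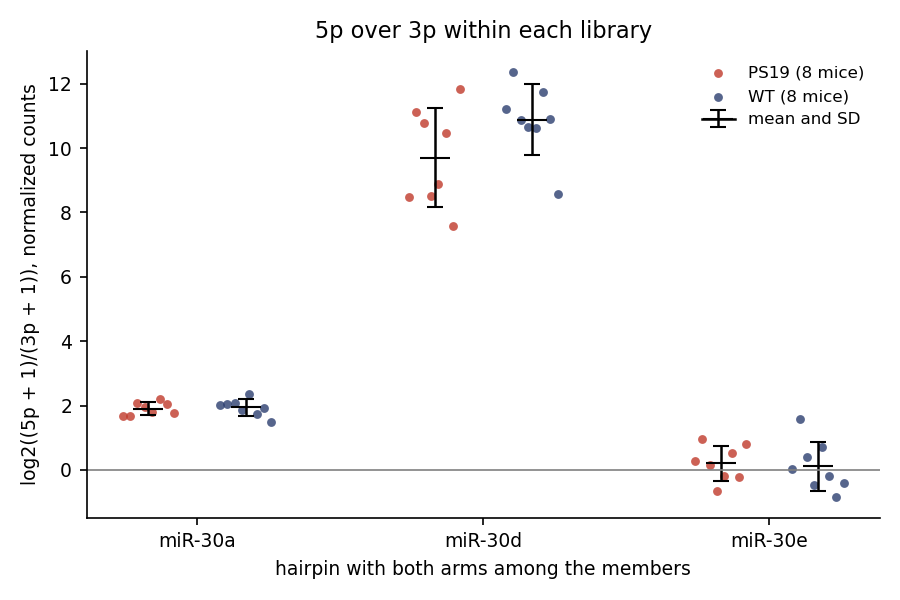
log2((5p + 1)/(3p + 1)) of the normalized counts for miR-30a, miR-30d and miR-30e. Each point is 1 library (8 PS19, 8 WT), the bars are mean and SD, and the grey line at 0 marks equal arms. miR-30a sits near 2 with little spread, miR-30d between 7.59 and 12.4, and miR-30e on both sides of 0.

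The other miR-30 hairpins were covered by entries outside the 8 members. miR-30b-5p had 815 reads against 100 of miR-30b-3p, a log2 ratio of 2.77 ± 1.09 (SD, n = 16) that was positive in 16 of 16 libraries (exact sign-flip adjusted p = 4.47e-05). The 3p arms of the miR-30c hairpins have the seed UGGGAGA, with a mean of 27.9 normalized counts for miR-30c-2-3p and 2.16 for miR-30c-1-3p, against 402 for the common miR-30c-5p. Without a locus for miR-30c-5p, no arm ratio was computed for either hairpin.

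**Figure D3:**
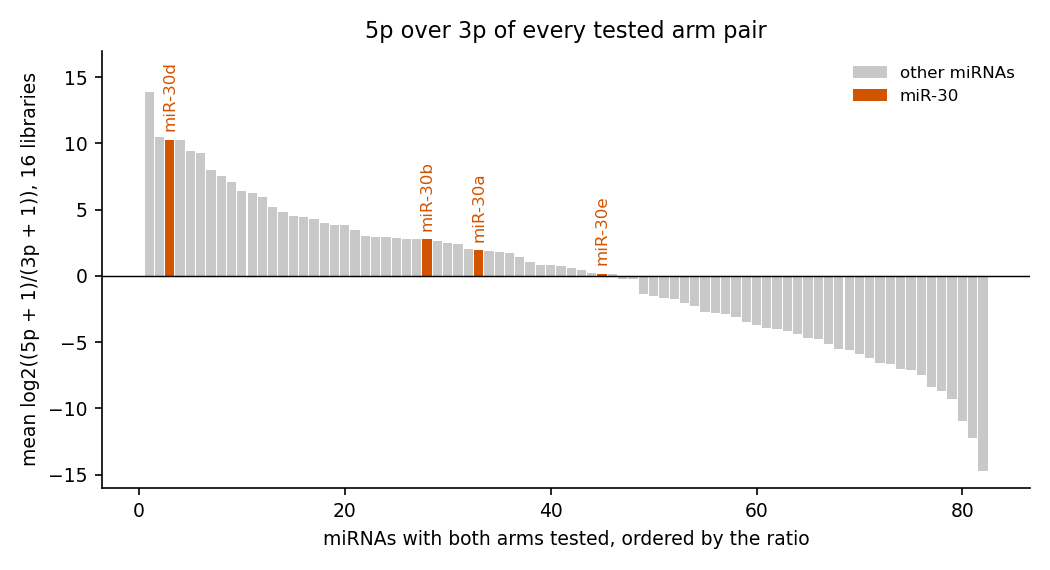
Mean log2((5p + 1)/(3p + 1)) over 16 libraries for the 82 miRNAs with both arms tested, ordered from highest to lowest, with the miR-30 hairpins in orange. miR-30d is 3rd from the left, miR-30b and miR-30a are 28th and 33rd, and miR-30e (45th) lies next to 0.

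The second comparison asked whether the members differed between the genotypes. Values were compared as log2(normalized count + 1) with limma, two-sided, and adjusted with the Benjamini-Hochberg method over all 15159 ncRNAs. A two-sided exact permutation test of 8 mice against 8 was added for each member. Of the 8 members, 6 had a mean below that of WT in PS19 and 2 above, but 0 had a limma p under 0.05 (the raw threshold of the study), against 4.85% of all ncRNAs (6.24% of the mature miRNAs). By the exact permutation test 2 of 8 had p under 0.05, against 3.96% of all ncRNAs (4.53% of the mature miRNAs). After adjustment 0 of the 15159 ncRNAs passed with limma, whereas 113 did with DESeq2 and 318 with edgeR on the recovered reads. The median log2 fold change was -0.57 over the members, -0.25 over the mature miRNAs and -0.01 over all ncRNAs, and 73.1% of the mature miRNAs had a value below 0, as did 50.8% of all ncRNAs. Among mature miRNAs with a mean of at least 1 normalized count the median was -0.57 too.

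The abundant 5p arms had lower medians in PS19 than in WT. miR-30d-5p, the most abundant member, ran from 876 through a median of 3522 to 6264 normalized counts in PS19 and from 3063 through 5863 to 8474 in WT. Its log2 fold change was -0.89 (standard error 0.469, 95% interval -1.86 to 0.07, limma p = 0.0684, adjusted p = 0.829), and the exact permutation p was 0.0396. Of the 8 PS19 libraries 7 lay under the WT median, though the ranges overlapped, as they did for every ncRNA. With limma it passed the raw threshold when PS19 replicate 2, PS19 replicate 8 or WT replicate 8 was left out (-1.01, -1.05 and -1.01). miR-30a-5p, known for its repression of the autophagy gene Becn1, ran from 877 through 2432 to 3441 in PS19 and from 1861 through 3392 to 5412 in WT. The log2 fold change was -0.57 (standard error 0.423, 95% interval -1.44 to 0.30, limma p = 0.192, exact permutation p = 0.0662). Again 7 of 8 PS19 libraries were under the WT median.

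miR-30c-5p, made from both the miR-30a and the miR-30e neighbourhoods, had 148, 304 and 449 normalized counts as lowest, median and highest value in PS19 and 256, 456 and 774 in WT. It had the steadiest order of the members, with 8 of 8 PS19 libraries under the WT median, yet the log2 fold change of -0.57 did not pass (standard error 0.414, 95% interval -1.42 to 0.29, limma p = 0.184, exact permutation p = 0.0581). miR-30e-5p, from the Nfyc intron, had 60.2, 125 and 228 in PS19 and 99.5, 223 and 318 in WT. Its log2 fold change was -0.63 (standard error 0.437, 95% interval -1.52 to 0.27, limma p = 0.163, exact permutation p = 0.0763). Here 6 of 8 PS19 libraries were under the WT median.

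miR-30b-5p, encoded beside miR-30d, was the 5p arm whose median was not lower in PS19. It had 13.2, 41.1 and 114 normalized counts as lowest, median and highest value in PS19 and 22.6, 31.4 and 95.7 in WT. The log2 fold change was 0.01 (standard error 0.479, 95% interval -0.97 to 0.997, limma p = 0.979, exact permutation p = 0.977). Only 2 of 8 PS19 libraries lay under the WT median, and the sign of the difference changed with the scaling (-0.25 with library totals).

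The 3p arms were compared in the same way. miR-30e-3p, the partner strand of miR-30e-5p, had 49.96, 127 and 156 normalized counts in PS19 and 105, 152 and 422 in WT. Its log2 fold change of -0.73 did not pass with limma (standard error 0.434, 95% interval -1.62 to 0.17, p = 0.106), while the exact permutation p was 0.0389. Here 7 of 8 PS19 libraries were under the WT median, and the lowest, PS19 replicate 1, was far below the rest. With DESeq2 on the recovered reads, the tool that the study names, miR-30e-3p was the 1 member with a raw p under 0.05 (log2 fold change -0.84), against 5.42% of all ncRNAs. miR-30a-3p had 273, 622 and 919 in PS19 and 632, 833 and 1330 in WT. The log2 fold change was -0.53 (standard error 0.409, 95% interval -1.37 to 0.31, limma p = 0.207, exact permutation p = 0.0600), with 6 of 8 PS19 libraries under the WT median. miR-30d-3p had 35 reads in PS19, of which 18 came from replicate 7 and 9 from replicate 5, and 21 reads in WT. A difference in miR-30d-3p was not detectable at this depth (log2 difference 0.28, standard error 0.602, 95% interval -0.96 to 1.51, limma p = 0.650, exact permutation p = 0.628), and its sign turned without PS19 replicate 7 (-0.034).

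**Figure D4:**
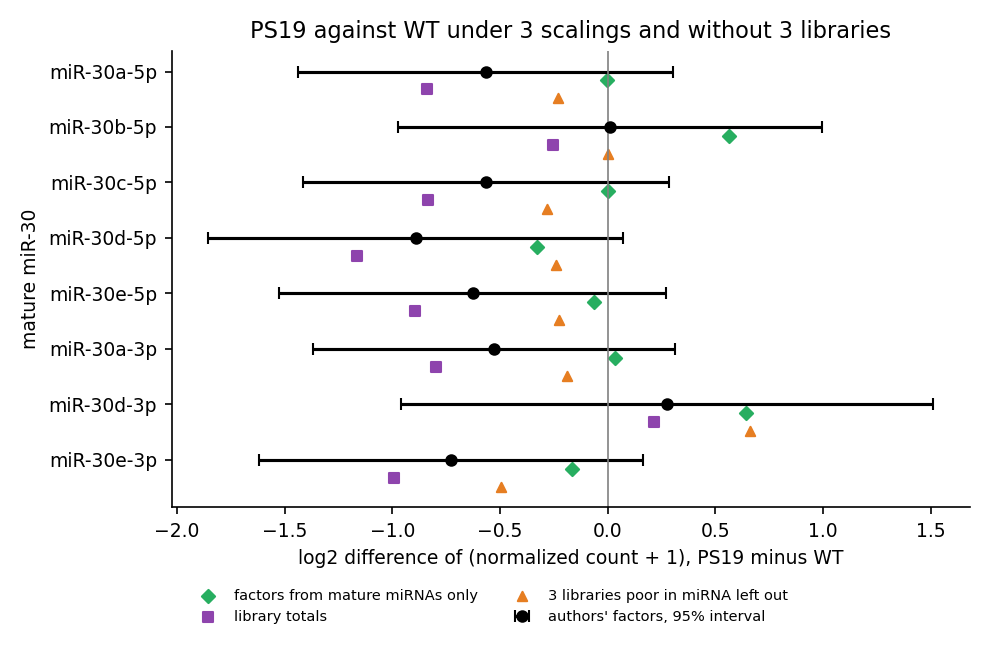
Difference of log2(normalized count + 1), PS19 minus WT, for the 8 members. Black points with bars are the limma estimate and 95% interval with the authors' factors. Other points are the estimate with factors from mature miRNAs only, with library totals, and without the 3 PS19 libraries under 200000 mature miRNA reads. All 8 intervals include 0, and the green diamonds of miR-30a-5p and miR-30c-5p lie at 0.

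These differences moved with the scaling and with the libraries poor in miRNA. PS19 replicate 1 had the lowest PS19 value in 7 of 8 members, the exception being miR-30d-3p. Without PS19 replicates 1, 3 and 4 the median log2 fold change of the members was -0.23, and that of the mature miRNAs -0.13. With the log2 mature miRNA share added as a covariate, the median of the members was -0.30, with miR-30d-5p at -0.47 and miR-30a-5p at -0.30. miR-30e-3p stayed at -0.72 with the covariate, against -0.73 without. With size factors computed from the mature miRNAs only, the median was -0.00 for the members and 0.17 for all ncRNAs. On that scale miR-30a-5p and miR-30c-5p were at -0.00, miR-30e-5p at -0.06, miR-30d-5p at -0.33 and miR-30e-3p at -0.16, while miR-30a-3p changed sign to 0.04. miR-30b-5p and miR-30d-3p were at 0.56 and 0.64, and 0 of 8 members had a raw p under 0.05 with limma. With library totals the median of the members was -0.84. Among the libraries whose names begin with the same letter as the PS19 libraries (8 PS19 and 2 WT) it was -0.91. What the letter stands for is not given in the sources used here. Since so few WT libraries carry it, the letter cannot be fully separated from the genotype.

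As a share of the mature miRNA reads, the family was not lower in PS19. It took 1.15% to 2.28% in PS19 (1.78% ± 0.454, SD, n = 8) and 1.22% to 1.95% in WT (1.54% ± 0.273, SD, n = 8). The highest shares were those of PS19 replicates 1, 3 and 4, at 2.25%, 2.28% and 2.28%. Without these libraries the difference in means changed sign, from 0.237 to -0.0561 percentage points. Per 1000000 mature miRNA reads, miR-30d-5p was at 8059 ± 1324 in PS19 and 8057 ± 1452 in WT, and miR-30a-5p at 6309 ± 2449 and 4768 ± 877 (SD over 8 mice). On this scale miR-30d-5p ran from 5893 to 9395 in PS19 and from 6425 to 10664 in WT, and the highest value of miR-30a-5p, 9737, was that of PS19 replicate 3.

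The balance of the abundant 5p arms differed between libraries. Across the WT libraries there were 1.42 to 1.93 reads of miR-30d-5p for each read of miR-30a-5p. In PS19 replicates 1, 3 and 4 there were 0.998, 0.829 and 1.004, and in the other 5 PS19 libraries 1.24 to 2.29. The log2 ratio was 0.43 ± 0.504 in PS19, against 0.76 ± 0.143 in WT (both SD, n = 8). The difference of -0.32 did not pass (two-sided exact permutation p = 0.101). Relative to miR-30a-5p, the differences between the genotypes in miR-30c-5p (0.00 on the log2 scale, exact permutation p = 0.999), miR-30e-5p (-0.06, p = 0.708) and miR-30b-5p (0.58, p = 0.0949) did not pass either.

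**Figure D5:**
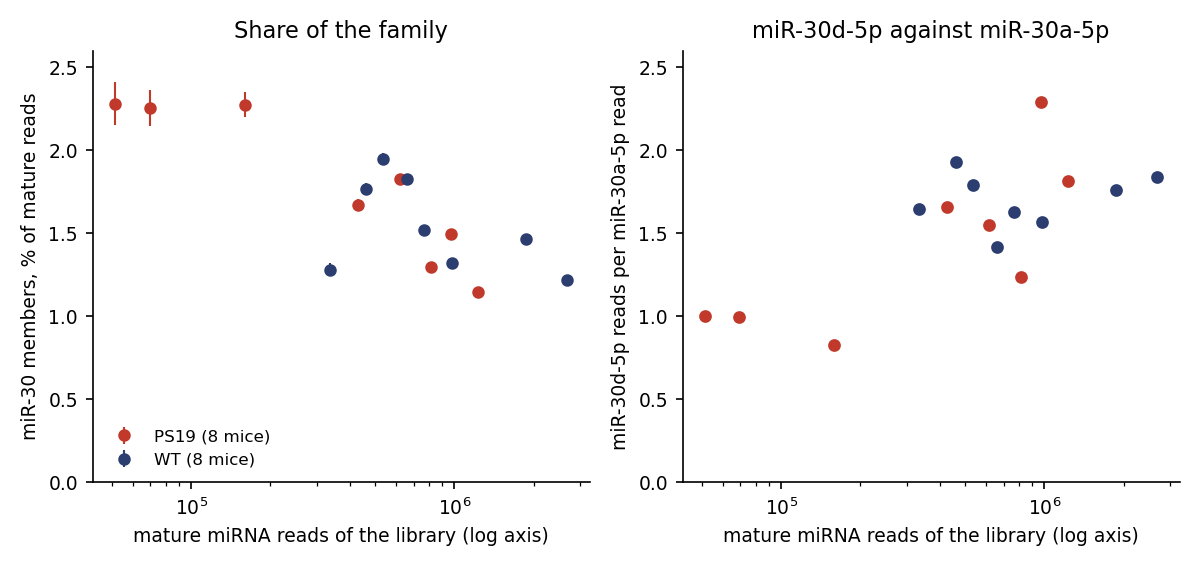
Left, the share of mature miRNA reads taken by the 8 members, with 95% intervals of the counting error. Right, miR-30d-5p reads per miR-30a-5p read. Each point is 1 library, placed by its mature miRNA reads (log axis). The 3 PS19 libraries with the fewest mature miRNA reads have shares of 2.25% to 2.28% and ratios of 0.829 to 1.004.

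The third comparison asked whether the arm ratio differed between the genotypes, which limma tested over the 82 pairs. Raw p was under 0.05 in 4 of them (4.88%) and in 0 of the miR-30 hairpins, and 0 passed after adjustment (smallest adjusted p = 0.214). For miR-30a the log2 ratio was 1.91 ± 0.199 in PS19, against 1.94 ± 0.265 in WT (both SD, n = 8). The difference of -0.04 had a 95% interval of -0.58 to 0.50 (limma p = 0.884, adjusted p = 0.950, exact permutation p = 0.751). For miR-30e it was 0.21 ± 0.552 and 0.11 ± 0.775, a difference of 0.10 with an interval of -0.71 to 0.91 (limma p = 0.801, adjusted p = 0.950, exact permutation p = 0.774). The value of miR-30d was lower in PS19, at 9.70 ± 1.53 against 10.87 ± 1.10, but the difference of -1.17 did not pass (95% interval -2.52 to 0.18, limma p = 0.0863, adjusted p = 0.816, exact permutation p = 0.106). It rests on 35 PS19 and 21 WT reads of miR-30d-3p, 18 of the former in PS19 replicate 7, without which it was -0.87. It passed the raw threshold without PS19 replicate 8 (-1.47) or WT replicate 8 (-1.50). The depth of miR-30d-3p thus limits how small a change in this ratio can be seen.

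Most members followed each other across the 16 libraries, whose values share the scaling of each library, and the correlations are given as descriptions. On the log2 normalized scale Pearson's r was 0.933 between the arms of miR-30a, 0.585 between those of miR-30e and -0.01 between those of miR-30d. miR-30a-5p and miR-30d-5p had r = 0.923, and per 1000000 mature miRNA reads r = 0.524. Outside the family, the ncRNAs most like the mean of the members among 2615 with a mean of at least 10 normalized counts were the H/ACA snoRNA Snora44 (r = 0.921), let-7i-5p (r = 0.899) and miR-191-5p (r = 0.898). The median r was -0.01 over all of them and 0.581 over the 211 mature miRNAs among them. Taken relative to the mature miRNA total of each library, the closest were miR-26b-5p (r = 0.904), miR-26a-5p (r = 0.902) and let-7i-5p (r = 0.877), against a median of 0.299. Their log2 fold changes between PS19 and WT were -0.68 for Snora44, -0.45 for let-7i-5p, -0.58 for miR-191-5p, -0.61 for miR-26b-5p and -0.54 for miR-26a-5p, and limma gave each of them an adjusted p of 0.829 or 0.835.

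Of the 9 other miR-30 entries, with limma 0 had a raw p under 0.05, with 5 below and 4 above WT in PS19. The precursor entries mir-30a and mir-30d, named for the whole hairpin, had means of 104 and 52.2 normalized counts over the 16 libraries, and log2 fold changes of -0.96 and -0.74. mir-30c-1 and mir-30c-2 had identical values in all 16 libraries, from 9 reads in all, so they cannot be told apart. mir-30b had 8 reads, all in WT replicate 6, with values identical to those of miR-7094-3p.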

How the data were processed

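Small RNA of pEVs was sequenced from a single end (NEBNext libraries, Illumina NextSeq) for 8 PS19 and 8 WT mice, 1 library per mouse, grouped by the genotype in the labels. The authors aligned reads with STAR 2.5.3a, used COMPSRA for the assignment to ncRNAs, and compared genotypes with DESeq2 1.42.1. mm10 is named in the submitters' processing notes. The signal values that the authors deposited for the 16 libraries are counts divided by DESeq2 size factors. Their further columns, a mean signal, a log2 fold change and its error, a Wald score, and a raw and an adjusted p-value, were deposited by the authors and not used here. Reads were recovered by dividing by the value of 1 read, and 100% of values came out whole within 1e-06.

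log2(normalized count + 1) was fitted with limma 3.58.1 (lmFit, eBayes with trend, R 4.3.3) over all ncRNAs with at least 1 read, since the values are not raw counts. Single values were tested with two-sided exact permutation (smallest p 0.000155 for 8 against 8). The alternatives were DESeq2 1.42.0 and edgeR 4.0.16 on recovered reads, library totals or factors from mature miRNAs, means of at least 1 or 10, other pseudocounts, the log2 mature miRNA share as a covariate, a replicate block, subsets of libraries, and each library left out. On the recovered reads DESeq2 called 822 ncRNAs and edgeR 2295 at a raw p under 0.05, and limma 735. Further steps ran in Python 3.11.15 (numpy 2.4.6, pandas 2.3.3, scipy 1.17.1, matplotlib 3.10.9). Sequences are from RefSeq and positions from GENCODE on GRCm38. Read ratios have Clopper-Pearson intervals and the family shares Wilson intervals (95% each). Both kinds cover counting error alone, as PCR copies of 1 molecule cannot be recognised. Names in the text are the 8 members, the other miR-30 entries, and the 3 ncRNAs most like the mean of the members on each of the scales used, by a fixed rule. Named outside this rule, after their values were seen, are miR-384-5p (a shared seed), the marker miR-219a-5p (0 reads in WT) and miR-7094-3p (values identical to those of mir-30b). The marker lists are of red blood cells, liver, neurons, platelets and myeloid cells, and endothelium. The members and lists were chosen with earlier results of these data known. The statistics were tested on simulated data.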

Additional observations from a re-analysis of the deposited data

Results flagged for a closer look

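In groups of 8, a sample was looked at again when its gap to the nearest other sample, divided by the range of the group, was above Dixon's critical value of 0.526. Of the 24 groups examined (8 members and the log2 arm ratios, in both genotypes) 2 had such a sample, and chance gives about 1 in 20 groups. miR-30e-3p was at 5.67 on the log2 scale in PS19 replicate 1, far below the other 7 PS19 mice (gap over range 0.621). That library had 69476 mature miRNA reads. Without it the log2 fold change of miR-30e-3p was -0.56, against -0.73 with it, and did not pass with limma in either case. The log2 5p over 3p ratio of miR-30d was 8.56 in WT replicate 8, below the other 7 WT mice (gap over range 0.545). It rested on 5 reads of miR-30d-3p.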

How the results depend on the processing

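With limma, 0 of 8 members passed a raw p of 0.05 under any scaling, filter, pseudocount or named subset of libraries. On the recovered reads 0 passed with edgeR and 1 with DESeq2 (miR-30e-3p, -0.84). Leaving out each library gave 0 to 1 members: miR-30d-5p then ran from -1.05 to -0.64 and passed without PS19 replicate 2 (-1.01), PS19 replicate 8 (-1.05) or WT replicate 8 (-1.01). The weak difference of miR-30b-5p changed sign with edgeR (-0.20), library totals (-0.25), libraries of the PS19 letter (-0.94), an alternative without libraries under 200000 mature miRNA reads that was chosen after seeing the data (-9.49e-05), and single libraries left out (-0.20 to 0.23). miR-30a-3p did so with mature miRNA factors (0.036), and miR-30d-3p ran from -0.034 without PS19 replicate 7 to 0.54 with single libraries left out, and reached 0.84 with DESeq2, with no value at a mean of at least 10. Over all ncRNAs, 735 calls became 2295 with edgeR, 440 with library totals and 230 at a mean of at least 10. Of the 735, 56.1% were higher in PS19, against 84.7% with mature miRNA factors, 32.7% with library totals and 21.6% among libraries of the PS19 letter.

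For the arm ratio between genotypes, 4 calls became 0 with both arms at a mean of at least 10, 13 with every listed pair, and 3 to 7 with a library left out (7 without PS19 replicate 5 or WT replicate 8). With single libraries left out, miR-30a ran from -0.10 to 0.023, miR-30e from -0.035 to 0.31 (-0.36 in libraries of the PS19 letter), and miR-30d from -1.50 to -0.87 (-1.81 in libraries of the PS19 letter), passing without PS19 replicate 8 (-1.47) or WT replicate 8 (-1.50). The 73 pairs with unequal arms became 29 and 127 under the same filters, while the calls of miR-30a, miR-30d and miR-30e stayed as they were in every alternative that held them. The family share, 0.237 percentage points higher in PS19 among mature miRNA reads, was lower in PS19 as a share of all reads. There the means were 0.0102% in PS19 and 0.0232% in WT, a difference of -0.0130 percentage points. The medians were 0.0103% and 0.0110%, and WT replicate 2 had the highest share, 0.0904%. The causes of these moves were not tested.

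Replicate numbers name different mice. Deviations of same-numbered libraries had correlations of -0.181 to 0.474, over 0.1 in 2 of 8 pairs, and 1 PS19 library correlated best with its own number, so they do not pair the libraries. A replicate block gave 685 calls and 0 members.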
